A study of Homo sapiens with 13 samples.

Results

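The Kruppel-like factors KLF2, KLF4, KLF5, KLF6, KLF7, KLF10 and KLF11 were followed in MCF10A cells after stimulation with epidermal growth factor (EGF) or with a serum mixture. The members were chosen by gene symbol: every probe set that the array's annotation assigns to 1 of these 7 symbols was taken, and each gene was represented by the probe set with the highest mean log2 signal over all 13 arrays. That gave 7 of the 11963 genes with a single symbol on the array, measured by 11 probe sets in all. MCF10A is a spontaneously immortalized, non-tumorigenic human mammary epithelial line, and all groups were deprived of serum for 24 hours. The groups were 6 arrays after EGF, 6 arrays after serum and 1 unstimulated array, with 1 array at each of 20, 40, 60, 120, 240 and 480 min for either stimulus. The serum mixture was horse serum with insulin, cholera toxin and hydrocortisone, so the comparison of EGF with serum is a comparison with the whole mixture. No time and stimulus was repeated, and no label says whether the arrays came from separate cultures. Every p-value below therefore measures the spread between these arrays, which may be technical. In the tests of late against early, the times of a phase stand in for replicates, so this spread also holds change over time. In the other tests it also holds any change over time of the difference between EGF and serum.

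Kruppel-like factors are transcription factors whose C-terminal zinc fingers bind GC-rich and CACCC sequences, and members differ in whether they recruit coactivators or corepressors. KLF4 is known in epithelia for cell cycle exit and differentiation, whereas KLF5 is known for expression in dividing basal cells. KLF6 is an early-response factor and tumor suppressor, KLF7 is best known from neurons, KLF10 and KLF11 were first described as early genes of the TGF-beta response and recruit the corepressor SIN3A, and KLF2 is best known from endothelium and lymphocytes.

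The arrays showed markers of basal mammary epithelium and some luminal ones. Of 12 genes listed for basal mammary epithelium, 8 were measured, and TP63 and KRT17 were not among them. The 8 include CDH1 and EPCAM, which are general epithelial genes. All 8 passed the filter on dim genes. Their summed signals were 22417.5 to 27989.7 in EGF arrays, 22432.3 to 29386 in serum arrays and 24424.1 in the unstimulated array. None of 5 endothelial markers passed that filter (summed signal 27.8 to 60.8 in EGF arrays and 35.2 to 104 in serum arrays), and 0 of 2 adipocyte markers did. Of other cell types, 1 of 5 blood cell markers, among them the red cell gene HBB, passed (CD14, median signal 186.9). So did 1 of 3 smooth muscle markers (ACTA2, 120.4). Of 5 fibroblast markers 2 passed (COL1A1, 38.7, and PDGFRB, 26.2). Of the 7 luminal markers, KRT8, KRT18 and GATA3 passed and ESR1, PGR, KRT19 and FOXA1 did not, with a sum of 3938.6 to 4565.6 in EGF arrays, 3326.7 to 3907.1 in serum arrays and 3443.2 unstimulated. The trimmed mean signal was 150.0 on every array. Signals under 20 made up 33.3% of the values on the serum 20 min array and 36.8% to 40.0% on the other arrays. The array titled as EGF at 20 min carries a description of 40 min, and the title was used. Signals are MAS5 intensities as deposited, in arbitrary units, and a level of 1 probe set cannot be set against that of another.

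The 7 factors followed unlike courses. KLF4 was high on all serum arrays and near its unstimulated signal on the EGF arrays, KLF6 peaked at 40 min and KLF7 at 60 min under both stimuli, and KLF10 peaked at 120 min under both. KLF5 had a broad serum maximum at 40 to 60 min. KLF11 moved within a narrow range of dim signals, and KLF2 was too dim to test.

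**Figure D1:**
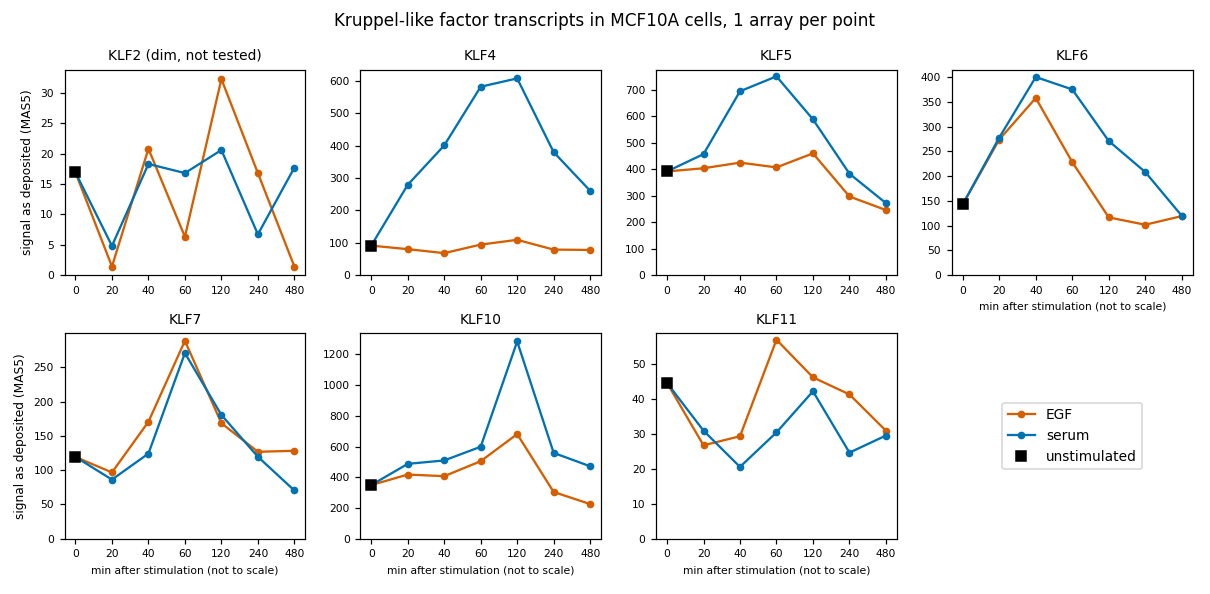
Deposited signal (MAS5 units, linear axes starting at 0) of each Kruppel-like factor against time after stimulation, with the EGF arrays in orange, the serum arrays in blue and the unstimulated array as a black square at 0 min. Each point is 1 array; the KLF4 serum arrays lie between 260.3 and 607.7, above all EGF arrays, while KLF6, KLF7 and KLF10 each have their maximum at the same time under both stimuli.

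KLF4, a repressor and activator of epithelial differentiation genes, gave signals of 79.9, 67.6, 94.0, 108.7, 78.5 and 77.5 at 20, 40, 60, 120, 240 and 480 min of EGF. At the same times of serum its signals were 278.8, 400.5, 582.0, 607.7, 379.7 and 260.3, and the unstimulated array had 90.8. The EGF and serum arrays did not overlap, and the highest EGF array was below the lowest serum array. The share of all genes without such overlap was not counted. Serum arrays were up to 6.69-fold above the unstimulated array, at 120 min, whereas 4 of the 6 EGF arrays were below it. Each array measures RNA of a whole culture, so fewer cells with a transcript and less of it per cell cannot be told apart.

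The upstream sequence of KLF4 is printed because KLF4 was the member called between the stimuli over all times, and those of KLF6 and KLF7 because they peaked at the same time under both. KLF10 did so too, but no window for it was available here. Each run holds the 250 bases before an annotated start in RefSeq (GRCh38.p14), 5′ to 3′ on the gene's strand. Capitals mark exact matches, on either strand, to the cAMP response element (TGACGTCA) or its shorter core (TGACG), the AP-1 site (TGANTCA), a short glucocorticoid receptor motif (AGAACA), the CArG box bound by serum response factor, and the MEF2 site. The full cAMP element holds the shorter core on both strands, so their counts overlap.
KLF4 chr9:107489770-107490019, minus strand: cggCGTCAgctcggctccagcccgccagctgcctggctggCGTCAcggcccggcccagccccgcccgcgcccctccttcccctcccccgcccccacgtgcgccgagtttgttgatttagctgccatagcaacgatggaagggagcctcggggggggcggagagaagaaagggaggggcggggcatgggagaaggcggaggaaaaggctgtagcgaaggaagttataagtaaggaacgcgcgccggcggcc
KLF6 chr10:3785210-3785459, minus strand: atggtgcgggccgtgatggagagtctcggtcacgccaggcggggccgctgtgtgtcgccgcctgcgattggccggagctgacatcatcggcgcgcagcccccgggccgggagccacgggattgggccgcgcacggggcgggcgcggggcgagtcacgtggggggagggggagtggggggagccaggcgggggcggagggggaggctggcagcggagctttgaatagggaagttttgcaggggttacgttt
KLF7 chr2:207167247-207167496, minus strand: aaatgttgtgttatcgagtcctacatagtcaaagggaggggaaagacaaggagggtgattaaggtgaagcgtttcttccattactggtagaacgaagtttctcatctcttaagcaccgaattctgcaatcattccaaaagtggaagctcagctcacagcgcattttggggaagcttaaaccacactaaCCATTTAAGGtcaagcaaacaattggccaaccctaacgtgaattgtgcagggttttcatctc

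The KLF4 window held 2 matches to the shorter cAMP core, which begin at -247 and -210 counted from the base before the start as -1. The printed KLF7 window, 1 of 4 for that gene, held a CArG box beginning at -62 and was chosen for it, and the KLF6 window held no capitalised match. A match to the shorter cAMP core was present in 21.2% of all 35116 windows of this length in the same table and a CArG box in 1.16%. Among the 11 windows of 6 members, KLF11 had the full cAMP element (in 1.65% of all windows) at -176 of one start, KLF2 had a MEF2 site (in 0.515%) at -120, and KLF5 had the shorter cAMP core at -14 of one start and the AGAACA motif (in 12.4%) at -27 of the other. Another KLF7 window had AGAACA at -11, and no member window had an AP-1 site, which 6.57% of all windows hold. GC boxes (GGGCGG), a sequence Kruppel-like factors themselves bind, numbered 4 in the KLF4 window, 2 in the KLF6 window and 0 in the printed KLF7 window. At least 1 was present in 42.6% of all windows. G and C made up 69.2%, 72.4% and 43.2% of these windows, in that order, against a median of 58% over all windows. The CACCC box, present in 54.7% of all windows, numbered 0 in the KLF4 and KLF6 windows and 1 in the printed KLF7 window. These are letter matches and do not show binding.

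Over all times KLF4 was 4.53-fold lower in EGF than in serum, with a log2 difference of -2.18 (SE 0.14, 6 pairs of arrays, adjusted p = 0.00239, limma with Benjamini-Hochberg adjustment over 7731 genes). Its mean log2 level was 6.48 ± 0.22 in EGF arrays and 8.66 ± 0.50 in serum arrays (SD over 6 times, n = 6 each). All 6 pairs had the lower value in EGF, by 3.20-fold at 480 min to 5.91-fold at 60 min. By p-value it ranked 1 of 7731 genes. In this comparison 0.129% of all genes tested were called, and KLF4 was the 1 called among the 6 members tested.

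KLF4 has a dimmer probe set as well. Its signals were 19.2, 1.0, 2.2, 11.5, 11.3 and 11.6 in the EGF time order and 47.4, 48.8, 77.1, 47.3, 40.8 and 20.3 in serum, with 15.6 unstimulated. EGF and serum arrays did not overlap, but only narrowly, with 19.2 as the highest EGF signal and 20.3 as the lowest serum signal. The share of all genes without such overlap was not counted here either. The log2 difference on this probe set, -1.81 (SE 0.38, adjusted p = 0.0745, limma), did not pass. Its signals of 1.0 and 2.2 lie near the offset of 6 added before the logarithm.

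KLF10, a repressor that recruits SIN3A, had signals of 417.7, 407.1, 504.7, 681.2, 304.1 and 225.4 over the EGF times. In serum it had 487.3, 509.5, 598.8, 1284.1, 558.8 and 471.4, and the unstimulated array had 349. Both courses peaked at 120 min, at 1.95-fold the unstimulated signal in EGF and 3.68-fold in serum. At 240 and 480 min the EGF arrays were below the unstimulated array and the serum arrays above it.

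By value the KLF10 gap was larger at the late times. The log2 difference EGF minus serum was between -0.28 and -0.24 at the 3 early times (20, 40 and 60 min), and was -0.89, -0.87 and -1.06 at 120, 240 and 480 min. Over the 3 late times KLF10 was 1.91-fold lower in EGF (log2 difference -0.94, SE 0.09, adjusted p = 0.02004, limma), while the early difference of -0.25 (SE 0.09, adjusted p = 0.312) did not pass. The test of the change itself, the interaction of stimulus and phase, gave -0.69 (SE 0.13, adjusted p = 0.226) and did not pass. The late call was lost when any of the 6 late arrays was left out, or either 40 min array (adjusted p of up to 0.130), and without the filter on dim genes. Over all times KLF10 was lower in EGF in 6 of 6 pairs, with a log2 difference of -0.59 that did not pass (SE 0.14, adjusted p = 0.0903).

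KLF5, a factor of proliferating basal epithelium, had signals of 403.1, 424.4, 406.4, 459.4, 296.5 and 245.2 over the EGF times. In serum it had 456.5, 693.9, 750.2, 587.8, 382.5 and 271.4, and the unstimulated array had 391.1. All 6 pairs were lower in EGF, most at 60 min (1.81-fold), and both courses ended below the unstimulated signal. The log2 difference over all times was -0.44 (SE 0.11, adjusted p = 0.0982), which did not pass. The dimmer KLF5 probe set had 227.3, 178.3, 143.1, 165.7, 247.6 and 116.2 in EGF and 237, 400.9, 432.7, 642.3, 320.5 and 287.5 in serum, against 299.8 unstimulated. On it every EGF array was below the unstimulated array, and the log2 difference was -1.06 (SE 0.24, adjusted p = 0.0861). The serum maximum lay at 120 min on this probe set and at 60 min on the brighter one, so the time of the KLF5 peak depends on the probe set.

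KLF6, an early-response tumor suppressor, had signals of 274.2, 358.2, 228.4, 116.6, 101.7 and 119.2 over the EGF times. In serum it had 278.2, 400.6, 375.6, 271.2, 208.4 and 119.9, against 143.2 unstimulated. Levels under the stimuli were nearly equal at 20 min, parted most at 120 min (2.30-fold lower in EGF) and were close again at 480 min. Over all times the log2 difference was -0.53 (SE 0.18, adjusted p = 0.174, limma). KLF6 has further probe sets, called the second and the dimmest here. On the second the maximum was again at 40 min, with 230.6 in EGF and 366.1 in serum, and the log2 difference was -0.66 (SE 0.20, adjusted p = 0.143). On the dimmest it was -1.01 (SE 0.22, adjusted p = 0.0795), with the highest signals at 20 min under both stimuli (42.6 in EGF and 82.9 in serum).

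**Figure D2:**
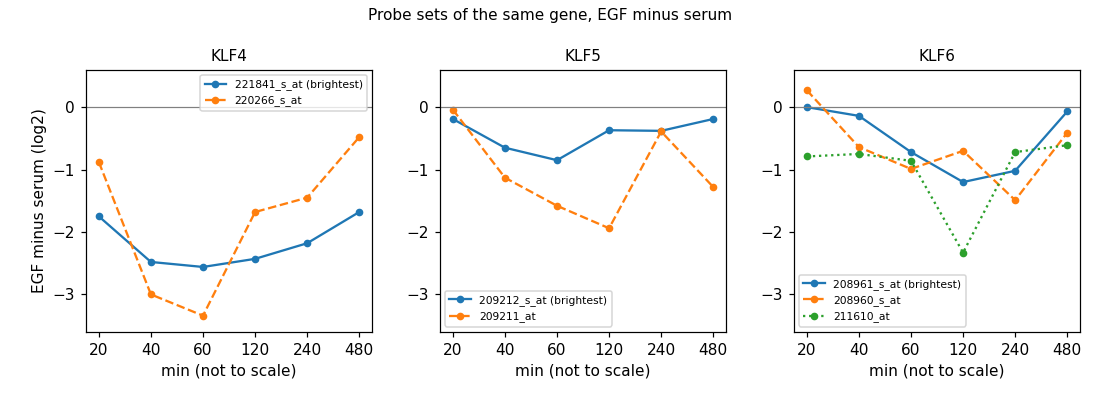
Log2 difference EGF minus serum at each time for the probe sets of KLF4, KLF5 and KLF6, 1 line per probe set, with its array ID in the legend, and 1 pair of arrays per point. Every probe set of KLF4 is below 0 at all 6 times, the KLF5 sets part most at 120 min, and the second of KLF6 (orange) is above 0 at 20 min only.

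KLF7, a factor known from neuronal outgrowth, had signals of 96.6, 170.5, 288.5, 168.4, 126.7 and 128.2 over the EGF times and 86.2, 124.1, 270.7, 180.4, 119.5 and 70.3 over the serum times. The unstimulated array had 119.2. The maximum at 60 min was 2.42-fold the unstimulated signal in EGF and 2.27-fold in serum, and the arrays of the stimuli overlapped throughout. The log2 difference over all times was 0.23 (SE 0.12, adjusted p = 0.316), with the EGF array higher in 5 of 6 pairs. The correlation of the EGF and serum courses over the 6 times was 0.901 for KLF7 and 0.904 for KLF5, against 0.588 to 0.762 for KLF4, KLF6, KLF10 and KLF11. These correlations describe 6 points of 1 array each.

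KLF11, a relative of KLF10 that also recruits SIN3A, was dim. It had 26.8, 29.4, 57.1, 46.3, 41.4 and 31.0 over the EGF times and 31.0, 20.6, 30.5, 42.3, 24.7 and 29.6 over the serum times, with 44.7 unstimulated. All 6 normalized pairs were higher in EGF, although the deposited signal at 20 min was lower in EGF, and the log2 difference of 0.31 did not pass (SE 0.12, adjusted p = 0.198). KLF2 had 1.4, 20.8, 6.3, 32.3, 16.8 and 1.4 over the EGF times, 4.8, 18.3, 16.8, 20.6, 6.7 and 17.7 over the serum times and 16.9 unstimulated. Its mean log2 value of 4.15 was under the filter of 4.68, the fit without the filter gave a log2 difference of -0.23 (SE 0.32), and 3 of 6 pairs were lower in EGF.

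**Figure D3:**
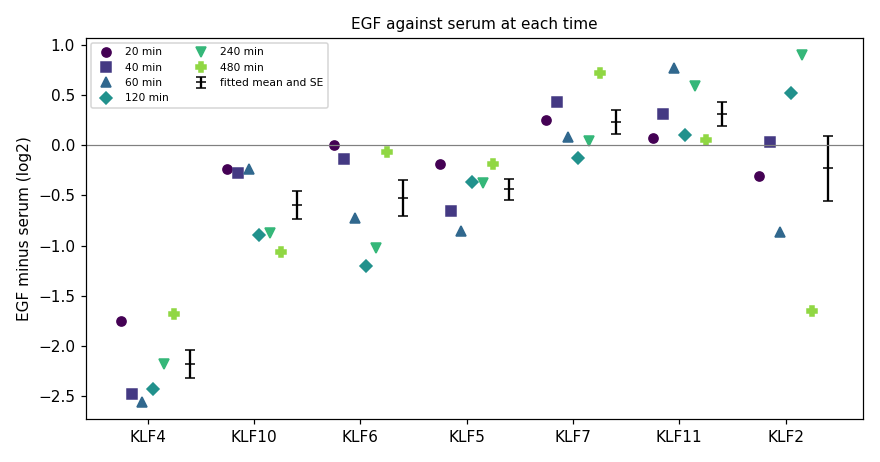
Log2 difference EGF minus serum for each Kruppel-like factor, with 1 symbol per time and the fitted mean over all times with its SE at the right of each gene. All 6 KLF4 symbols lie between -2.56 and -1.68, KLF10, KLF5 and KLF6 are at or below 0 at all times, and KLF2, taken from the fit without a filter, scatters on both sides.

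Split by phase, the log2 difference of KLF4 between EGF and serum was -2.10 over 120, 240 and 480 min (SE 0.21, adjusted p = 0.0198) and -2.26 over 20, 40 and 60 min (SE 0.21, adjusted p = 0.0547). The late value passed and the early one did not, and the interaction of 0.17 (SE 0.29, adjusted p = 0.858) does not show a difference between the phases. The dimmer KLF4 probe set gave -1.21 late (adjusted p = 0.239), -2.41 early (adjusted p = 0.157) and an interaction of 1.20 (SE 0.67, adjusted p = 0.545), none of which passed. Late, 2 of 6 members tested were called, KLF4 and KLF10, where 0.75% of all genes were. Early, limma called 0 of 6 members and 0% of all genes. At an unadjusted p under 0.05 the early part held 3 members (KLF4, KLF5 and KLF10) and 1115 genes, and limma with a variance trend called 2 members and 178 genes. The KLF4 late call was lost when any of the 6 late arrays was left out (adjusted p of up to 0.130), without the filter on dim genes, with the mean of probe sets and on the dimmer probe set. No member passed the interaction of stimulus and phase, in which 0.0259% of genes were called. KLF10 was the 1 member under an unadjusted p of 0.05 there, as were 862 genes, and limma with a variance trend called 1 member and 70 genes.

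Between the phases KLF6 fell. Its signals were 101.7 to 119.2 late and 228.4 to 358.2 early in EGF, and 119.9 to 271.2 late and 278.2 to 400.6 early in serum. Late and early did not overlap within a stimulus, in serum by a narrow margin (271.2 against 278.2). The share of all genes without such overlap between phases was not counted. The log2 difference late minus early over both stimuli was -1.07 (SE 0.18, 12 arrays, adjusted p = 0.0186, limma), a 2.09-fold lower late level. KLF6 was the 1 called of 6 members, where 3.47% of all genes were called. Its call was lost without the serum 40 min array (log2 difference -1.02, adjusted p = 0.0511) and on the second probe set (-1.18, adjusted p = 0.0529), and held on the dimmest (-1.25, adjusted p = 0.0235).

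Within single stimuli KLF6 gave -1.30 in EGF (SE 0.26, adjusted p = 0.0858) and -0.83 in serum (SE 0.26, adjusted p = 0.117). None of the 6 members passed in EGF, where limma called 0.259% of genes, and none in serum, where it called 1.33%. KLF6 was the 1 member under an unadjusted p of 0.05 in either stimulus, as were 1119 genes in EGF and 1561 in serum. Limma with a variance trend called 1 member and 69 genes in EGF, and 0 members and 412 genes in serum. KLF5 had a log2 difference late minus early of -0.51 over both stimuli (SE 0.21, adjusted p = 0.166), but 0.03 on the dimmer probe set. KLF4, KLF7, KLF10 and KLF11 had differences of 0.05, -0.25, 0.03 and 0.23 over both stimuli, and none passed.

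**Figure D4:**
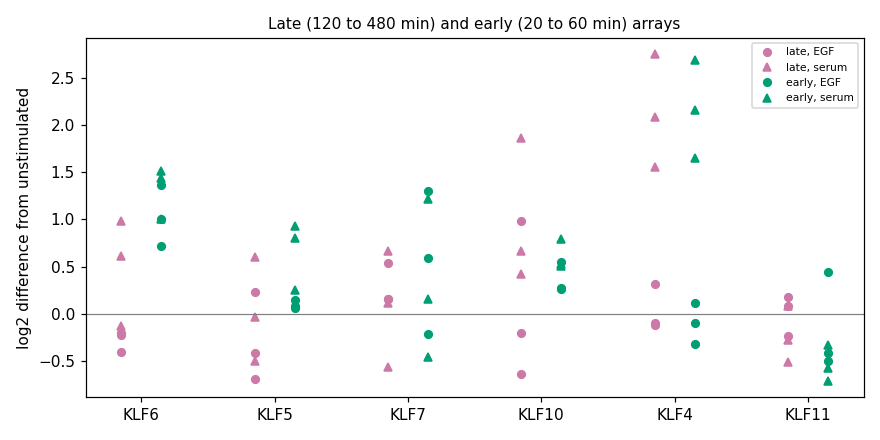
Normalized log2 difference from the unstimulated array for each member on the late arrays (120 to 480 min, pink, left) and the early arrays (20 to 60 min, green, right), with circles for EGF and triangles for serum. The early KLF6 arrays lie above all late ones except for serum at 120 min, while KLF4 separates by stimulus in either phase.

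Set against the unstimulated cells, no member passed at any time. These tests average the EGF and serum arrays of a time and share the single unstimulated array, so they are not independent of each other. Each member's largest difference was 1.44 for KLF6 at 40 min (SE 0.38, adjusted p = 0.436), 1.26 for KLF7 at 60 min (SE 0.25, adjusted p = 0.207) and 1.42 for KLF10 at 120 min (SE 0.30, adjusted p = 0.219). For KLF4 it was 1.54 at 120 min (SE 0.30, adjusted p = 0.215), a mean of a serum array far above and an EGF array close to the unstimulated signal. The most negative were -0.60 for KLF5 at 480 min (SE 0.23, adjusted p = 0.374) and -0.56 for KLF11 at 40 min (SE 0.25, adjusted p = 0.730).

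The share of all genes called by limma was 0.0259% at 20 min, 0.0776% at 40 min, 0.0776% at 60 min, 0.0259% at 120 min, 0% at 240 min and 0% at 480 min. At an unadjusted p under 0.05 the counts of members were 2, 2, 3, 3, 1 and 2 of 6 at those times, and those of all genes were 456, 544, 575, 715, 752 and 910. With a variance trend limma called 4 member and time combinations, among them KLF4 and KLF10 at 120 min and KLF7 at 60 min. The shares above belong to the main fit, which called 6 genes at 60 min and 2 at 120 min. Over all alternatives the genes called reached 28 at 60 min and 26 at 120 min. An F test over the 6 times with stimulus as a term called 0.0388% of genes and 0 of the 6 members. All 6 members had an unadjusted p under 0.05 in it, as had 958 genes, with adjusted p from 0.127 for KLF7 to 0.398 for KLF4. Since each point is 1 array, neighbouring times of a course cannot be told apart beyond their spread.

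**Figure D5:**
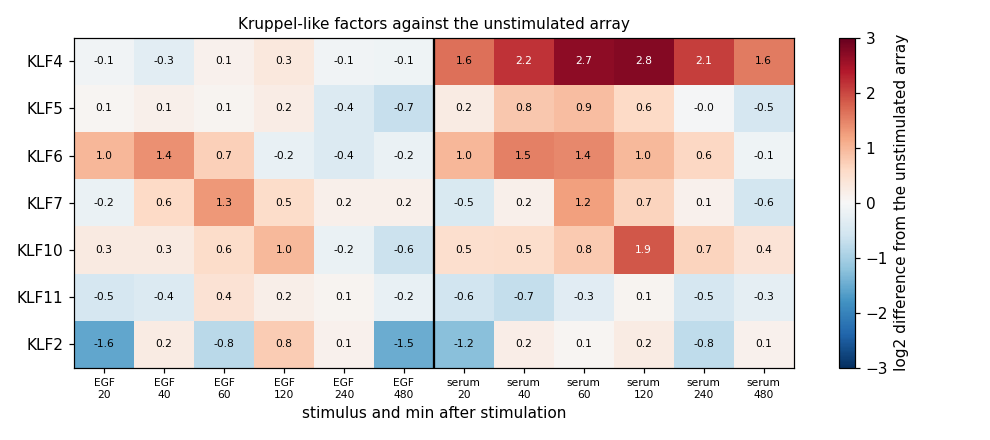
Normalized log2 difference of each array from the single unstimulated array, 1 row per Kruppel-like factor and 1 column per stimulus and time (EGF left, serum right). KLF4 is between 1.6 and 2.8 on every serum array and between -0.3 and 0.3 on every EGF array; KLF2 is dim and its values scatter.

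The gene whose profile was most like that of KLF4 over the 13 arrays was PDE4D, a cAMP phosphodiesterase (Pearson r = 0.930), followed by THBD, thrombomodulin (0.930), and CDKN1C, a cyclin-dependent kinase inhibitor (0.920). CDKN1C had 19.1 to 34.1 in EGF arrays and 65.1 to 151.9 in serum arrays, with 25.9 unstimulated, and THBD had 143.7 to 265.9 in EGF arrays and 283.2 to 411.5 in serum arrays, with 214.3 unstimulated. PDE4D, which is also on the list of cAMP and CREB targets below, had 70.9 to 100.8 in EGF arrays and 110.6 to 172.6 in serum arrays, with 86.7 unstimulated. Its log2 difference EGF minus serum of -0.69 (SE 0.09, adjusted p = 0.0533, limma) did not pass. In none of these genes did EGF and serum arrays overlap. All were picked for likeness to KLF4, which separates by stimulus on the same arrays, so this is not a separate result. For KLF5 the nearest profiles were SELENOP (0.957), EXD2 (0.951) and ETS2 (0.950), and for KLF6 they were SLC37A4 (0.949), PLK2 (0.903) and SRPX (0.897). For KLF7 they were PTPN14 (0.932), INHBA (0.850) and MAP3K12 (0.824). For KLF10 they were ATP10B (0.907), ID1 (0.872) and CCZ1 (0.860), and for KLF11 they were YY1AP1 (0.796), AKIRIN1 (0.794) and SUPT16H (0.777). These coefficients were picked as the highest among all genes tested, the arrays share their stimulus and time, and no p applies to them. Between members the highest coefficient was 0.786 for KLF5 with KLF6, and the lowest was -0.512 for KLF6 with KLF11.

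Of 18 other Kruppel-like and SP factors listed, 11 had a probe set and 5 passed the filter (KLF3, KLF9, KLF12, SP2 and SP3). Over all times limma called 0 of these 5 between EGF and serum, and 0.129% of all genes. At an unadjusted p under 0.05 were 3 of the 5, as were 1588 of the 7731 genes tested. The median log2 difference of the 5 was -0.29 against 0.01 for all genes. KLF9, a glucocorticoid-responsive factor, had 37.8, 33.2, 24.4, 10.6, 8.3 and 11.7 over the EGF times, 67.7, 42.8, 54.1, 46.7, 30.9 and 17.8 over the serum times and 57 unstimulated. It was lower in EGF in 6 of 6 pairs, with a log2 difference of -0.91 (SE 0.19, adjusted p = 0.0777) that did not pass. KLF12, a repressor, had 0.39 (SE 0.13, adjusted p = 0.172). Between phases KLF9 fell late, with a log2 difference of -0.91 (SE 0.18, adjusted p = 0.0239, limma). So did KLF3, a CtBP-binding repressor, with -0.58 (SE 0.14, adjusted p = 0.0456). These were the 2 called of the 5, where 3.47% of all genes were called.

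Of the cofactors and ubiquitin ligases of these factors, 15 of 18 were tested and limma called 0 between EGF and serum. Their median was 0.02, and 1 of the 15 had an unadjusted p under 0.05, as had 1588 of the 7731 genes tested. The largest differences were 0.39 for SMURF2 (SE 0.15, adjusted p = 0.198) and 0.38 for FBXW7 (SE 0.17, adjusted p = 0.251), both parts of ubiquitin ligases. Late against early, CTBP2, the corepressor that KLF3 binds, rose (0.45, SE 0.07, adjusted p = 0.0164), and it was the 1 of 15 called, where 3.47% of all genes were. Of 34 reported targets of Kruppel-like factors, 25 were tested. Over all times, where 0.129% of all genes were called, 2 were lower in EGF and 0 higher, CDKN1C (-1.85, SE 0.20, adjusted p = 0.0270) and THBD (-0.93, SE 0.12, adjusted p = 0.0464), and the list's median was -0.09. Late against early 3 of the 25 were called, against the same 3.47% of all genes. CCND1, cyclin D1, rose (0.67, adjusted p = 0.0360), while ATF3, a stress-response factor (-1.88, adjusted p = 0.0292), and TXNIP, a thioredoxin inhibitor (-0.93, adjusted p = 0.0480), fell.

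Lists of other response genes are given beside KLF4, for a comparison in which 0.129% of all genes were called over all times. Of 13 glucocorticoid receptor targets tested, 4 were lower in EGF over all times (DUSP1, CDKN1C, TSC22D3 and SGK1) and 0 higher, with a median of -0.91. KLF9 is on this list too, and CDKN1C is also on that of reported KLF targets. Of 10 cAMP and CREB targets, 1 was lower in EGF, RGS2, a regulator of G protein signaling (-3.16, SE 0.30, adjusted p = 0.0154), and 0 were higher, with a median of -0.71. Of 17 factors of the SRF, ERK and TCF response, ELK3, a partner of SRF (-0.78, SE 0.10, adjusted p = 0.0470), was the 1 lower in EGF, and the median was -0.07. Late against early, where 3.47% of all genes were called, 4 of the 17 fell (EGR1, FOSB, FOS and EGR3) and 0 rose, with a median of -0.42. In the same comparison 7 of the 13 glucocorticoid receptor targets fell, among them DUSP1, SGK1 and ZBTB16, and 1 rose, ANGPTL4, with a median of -0.53. Of the 10 cAMP and CREB targets FOSB and ATF3 fell and 0 rose, with a median of -0.64. Both are counted above already, FOSB among the SRF, ERK and TCF factors and ATF3 among the reported KLF targets. The part of each component of the mixture in the Kruppel-like factor levels was not tested.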

How the data were processed

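In 13 samples, RNA of MCF10A cells was hybridised to 1-colour Affymetrix arrays. The authors deposited MAS5 signal intensities, per the submitters' processing notes; the version is not given in the sources used here. Probe sets were named from the platform annotation: 19064 had 1 symbol, 1043 several and 2108 none, and 62 control probe sets were left out.

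Intensities plus an offset of 6 were converted to log2 and quantile normalized. The brightest probe set stood for each gene, and genes with a mean under the 40th percentile (4.68) were not tested, which left 7731. limma 3.58.1 (R 4.3.3) fitted EGF minus serum with time as a block, late minus early in 4 cells of stimulus and phase, and times against the unstimulated array with stimulus added. A gene was called at a Benjamini-Hochberg adjusted p of 0.05 or less. Folds between stimuli or phases are on the normalized log2(signal + 6) scale, which understates those of dim genes; folds over the unstimulated array are ratios of deposited signals. The number of arrays limits the precision. The scripts were checked on simulated data. Figures used matplotlib 3.10.9.

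All 7 members are named, with the 3 most similar profiles of each tested member and, of each list, up to 4 called genes by smallest p or otherwise the 2 with the largest absolute difference. The members and lists were chosen with earlier results of these data known. The F test over times and the KLF2 values without the filter were added after seeing the data. Alternatives changed the offset, normalization, filter, probe set, variance model and arrays. The labels carry no replicate numbers, and the EGF and serum arrays were paired by time alone.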

Additional observations from a re-analysis of the deposited data

How the results depend on the processing

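The KLF4 difference between EGF and serum over all times kept its direction under all 21 alternatives (-2.28 to -1.81) and its call with all but the dimmer probe set (-1.81). The number of members called over all times was 1, where 10 of all genes were called. It became 3 with a stricter filter on dim genes (60th percentile), where 225 of all genes were called. With a variance trend and robust variances it became 3, where 426 of all genes were called. It was 1 with any single array left out. The early count of 0 became 1 with 4 times the offset, 1 without quantile normalization, 1 with the stricter filter and 2 with the variance trend, where 178 of all genes were called. The late count of 2 became 0 without a filter on dim genes, where more genes were tested, 1 with the mean of probe sets and 3 with the variance trend, and ranged from 0 to 2 with single arrays left out (0 without any of the 120, 240 or 480 min arrays, 1 without either 40 min array). The late minus early count of 1 ranged from 0 to 1, with 0 without the serum 40 min array. In EGF alone the count of 0 became 1 with the stricter filter, the mean of probe sets, the variance trend, or without the serum 480 min array (range 0 to 1). With the variance trend the interaction gave 1 and the times against unstimulated 4. The number of all genes called also varied over the alternatives. It ran from 0 to 178 early, 0 to 554 late, 0 to 69 in EGF alone and 0 to 70 for the interaction. Where no count of all genes stands beside a count of members, the members cannot be set against the share of all genes in that setting. The causes were not tested.

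Differences that had not passed changed sign in places. Without both 20 min arrays, late minus early became -0.079 for KLF4 and -0.019 for KLF10 over both stimuli and -0.0064 for KLF11 in EGF. The dimmer probe set gave KLF5 0.031 over both stimuli, 0.17 in serum and an interaction of -0.29, and the mean of probe sets an interaction of -0.016. Without quantile normalization the KLF7 interaction was 0.038. With single arrays left out, late minus early ranged for KLF4 from -0.11 to 0.19 over both stimuli, from -0.012 to 0.24 in EGF and from -0.34 to 0.25 in serum, with an interaction from -0.044 to 0.42. On the dimmer KLF4 probe set these were 0.67 in EGF, -0.53 in serum and an interaction of 1.20. For KLF7 it ranged from -0.66 to 0.095 in EGF and from -0.62 to 0.22 in serum, with an interaction from -0.30 to 0.13 and a late EGF minus serum difference from -0.044 to 0.38. For KLF10 it ranged from -0.21 to 0.20 over both stimuli, from -0.78 to 0.025 in EGF and from -0.071 to 0.65 in serum. For KLF11 it ranged from -0.0064 to 0.47 in EGF, with an interaction from -0.31 to 0.062.

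Counts over all genes moved more. Over the alternatives they ran from 1 to 426 for EGF minus serum over all times, 0 to 178 early and 0 to 554 late. Late minus early gave 56 to 647 over both stimuli, 0 to 69 in EGF and 9 to 412 in serum, and the interaction 0 to 70. Against the unstimulated array they ran from 0 to 5 at 20 min, 1 to 20 at 40 min, 1 to 28 at 60 min, 1 to 26 at 120 min, 0 to 35 at 240 min and 0 to 46 at 480 min. Signals near the offset limit what KLF2, KLF11 and the dimmer KLF4 and KLF6 probe sets can show.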
